A study of Mus musculus with 12 samples.

Results

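The mRNA deadenylation, decapping and decay genes are 58 genes, chosen by name as the enzymes and cofactors that remove the poly(A) tail or the cap of an mRNA or degrade its body. All 58 were found among the 24525 genes of the count tables, 57 under the given symbol and 1, Hrsp12, under its present symbol Rida. The libraries compared are RNA-seq input libraries of neural stem/progenitor cells (NSPCs) grown as neurospheres from C57BL/6 E14.5 brains, at passage 1, in medium with EGF and bFGF and with no other treatment. Wild type and Ythdf2-/- had 3 libraries each. The Ythdf2-/- allele came from mice with LoxP sites around the first exon and 5′ UTR, crossed with mice that express Cre in all tissues, so every cell of the embryo carries the deletion. The labels do not say whether libraries came from separate embryos or from pools, so p-values here measure the spread between these libraries.

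An mRNA in the cytoplasm is usually degraded in steps. Its poly(A) tail is first shortened, mainly by the CCR4-NOT complex and the PAN2-PAN3 complex, then either the cap is removed and the exonuclease Xrn1 digests the body from the 5′ end, or the RNA exosome digests it from the 3′ end. Ythdf2 binds mRNAs that carry N6-methyladenosine (m6A) and brings them to this machinery: it is known to contact the CCR4-NOT scaffold Cnot1, and Hrsp12 is known to bridge it to the RNase P/MRP endonuclease. The comparison asked whether the mRNAs of this machinery differ in level when Ythdf2 is absent.

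Ythdf2 had 71.9, 73.3 and 91.4 CPM (reads scaled by library size) in wild-type replicates 1, 2 and 3, and 11.7, 14.7 and 11.1 CPM in the Ythdf2-/- replicates. All Ythdf2-/- libraries lay below all wild-type libraries, and the log2 fold change in edgeR was -2.66 (standard error, SE, 0.183; adjusted p = 0.0547). Counted reads per library ran from 11029827 to 13185778. Wild-type replicate 3 stood apart, at 91.0 on a first principal component that held 74.2% of the variance, while the other 5 libraries lay between -30.6 and -6.04. Its marker genes also differed. The summed CPM of 6 astrocyte markers was 7334 against 1270 to 2999 in the other 5 libraries, and that of 10 oligodendrocyte lineage markers was 4250 against 1732 to 2164. The summed CPM of 10 stem/progenitor markers was 5986 against 9184 to 11070, although 4 of them (Sox2, Pax6, Sox9 and Hes5) were highest in this library, and Ccnd1, at 27.9 against 679 to 1986 CPM, Fabp7, Nes and Vim were lowest. The oligodendrocyte lineage genes Olig1, Olig2 and Cspg4 were lowest in it, unlike the sum of their list. The summed CPM of 8 neuronal markers was 1963 against 1230 to 1450, with 5 of the 8 highest in this library. Among 6 mesenchymal markers the sum was 32.4 against 0.889 to 4.35 CPM, nearly all of it Pdgfrb. The 8 microglia and macrophage markers summed to at most 4.58 CPM and the 6 endothelial markers to at most 3.51 CPM in any library, with C1qa, C1qb, Trem2 and Cldn5 at 0 in all. Of the 6 astrocyte markers, 5 overlapped between genotypes and Gfap did not. Gfap, an astrocyte filament gene, had 437, 625 and 3046 CPM in wild type and 127, 87.7 and 5.55 CPM in Ythdf2-/-. Reads on Y-linked genes were present in wild-type replicates 1 and 2 and Ythdf2-/- replicate 3 and near absent in the other 3 libraries. In bulk RNA, fewer cells of a type and less RNA per cell cannot be told apart. Values without it, or ranges over the 16 alternative settings, which include leaving out each library, are given beside many of the results.

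The sequences of the 2 genes with the widest range among libraries, Zfp36 and Btg2, are shown first, because their levels varied most. Zfp36 encodes tristetraprolin, which binds AU-rich elements in 3′ UTRs and recruits CCR4-NOT, and Btg2 encodes an adaptor that binds the Cnot7 and Cnot8 deadenylases. Both are known as immediate-early genes, switched on within minutes of growth factor or stress signals. The 250 bases before each RefSeq start site (GRCm38.p6, minus strand for both) lie at chr7:28379229-28379478 for Zfp36 and chr1:134079156-134079405 for Btg2. Capitals mark a serum response element (CArG box) in Zfp36 and a cyclic AMP response element (TGACGTCA) in Btg2, searched on both strands.
Zfp36 promoter: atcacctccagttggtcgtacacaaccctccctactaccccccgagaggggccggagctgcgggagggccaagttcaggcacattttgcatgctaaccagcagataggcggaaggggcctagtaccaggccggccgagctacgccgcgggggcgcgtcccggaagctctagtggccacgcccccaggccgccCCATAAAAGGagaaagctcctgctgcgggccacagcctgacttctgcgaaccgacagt
Btg2 promoter: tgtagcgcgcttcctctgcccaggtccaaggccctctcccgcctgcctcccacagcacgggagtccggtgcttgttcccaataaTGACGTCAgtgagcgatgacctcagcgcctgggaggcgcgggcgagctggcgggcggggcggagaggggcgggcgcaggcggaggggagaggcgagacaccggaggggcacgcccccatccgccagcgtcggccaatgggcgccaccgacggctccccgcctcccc

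The Zfp36 match starts 58 bases before the start site and the Btg2 match 166 bases before it. Over all 32851 RefSeq promoter windows of this length, 1.47% held the serum response element and 1.55% the cyclic AMP response element. The 46 decay genes with a RefSeq promoter had 58 such windows, so counts of genes do not compare directly with shares of windows. Of these genes, 1 held the serum response element (Zfp36) and 2 the cyclic AMP response element (Btg2 and Lsm2). The AP-1 site TGACTCA, searched on both strands, which differs from the cyclic AMP response element by a missing base, was in 4.46% of all windows and in that of 1 decay gene, Patl1.

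The Zfp36 mRNA also carries the motif its own protein is known to bind. In its GENCODE 3′ UTR of 774 bases the heptamer TATTTAT occurred 3 times, and in those of the paralogues Zfp36l1 and Zfp36l2 it occurred 3 times each. The 3 Zfp36 sites lie on the minus strand of chromosome 7 in GRCm38, at 28376966 to 28376994, 28376951 to 28376979 and 28376926 to 28376954, with the heptamer in capitals.
Zfp36 site 1: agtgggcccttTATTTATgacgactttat
Zfp36 site 2: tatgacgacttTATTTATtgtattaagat
Zfp36 site 3: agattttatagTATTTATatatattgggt

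Across the 57 decay genes with a GENCODE 3′ UTR, 16 (28.1%) held TATTTAT, against 29.4% of all 11901 tested genes with one. The Pumilio motif TGTANATA occurred in 17 (29.8%) against 26.3%, and in the UTR of Pum2 itself it occurred 2 times. GGACT, a form of the m6A consensus, had a median density of 0.85 per kb of transcript in the decay genes against 1.05 per kb in all tested genes, and 50 of the 57 transcripts (87.7%) held at least 1 copy, against 92.8% of all tested genes. The transcripts of Cnot3, Cnot6l, Lsm3, Lsm4, Lsm5, Lsm7 and Hrsp12 held none. For Cnot6l the transcript searched has 3170 bases, against 8814 bp of merged exons. These are matches to letters, and no m6A measurement was used.

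**Figure D1:**
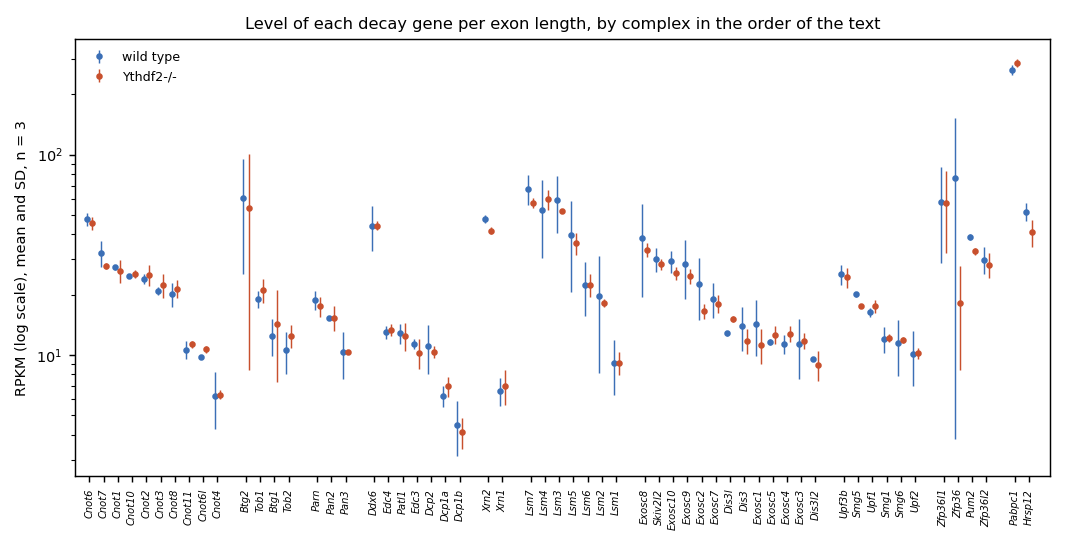
Level of each decay gene in RPKM (reads scaled by exon length and library size, log axis), as mean and SD of 3 wild-type (blue) and 3 Ythdf2-/- (orange) libraries, with genes grouped by complex and sorted by level. Pabpc1 is the most abundant at 275 RPKM over all 6 libraries and Dcp1b the least at 4.32 RPKM, and the widest bars belong to Zfp36 and Btg2.

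All 58 decay genes were expressed, with 81 to 11394 counted reads per gene and library, and their levels per exon length spanned 4.32 to 275 RPKM (mean of the 6 libraries). The highest member of a group exceeded the lowest by 1.76-fold (PAN2-PAN3 and Parn) to 10.2-fold (the decapping factors). CCR4-NOT members ran from 6.28 RPKM for the ubiquitin ligase Cnot4 to 46.5 RPKM for the deadenylase Cnot6, and the decapping factors from 4.32 RPKM for Dcp1b to 44.2 RPKM for the helicase Ddx6. The nuclear 5′-3′ exonuclease Xrn2 had 44.8 RPKM and its cytoplasmic relative Xrn1 6.82 RPKM. In the Lsm1-7 ring, which binds the 3′ end of deadenylated mRNA, Lsm7 had 62.6 RPKM and Lsm1 9.11 RPKM. With the lengths of the deposited gene tables the highest gene of each of the 10 groups did not change, and the lowest changed in 1 group, from Cnot4 to Cnot6l.

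**Figure D2:**
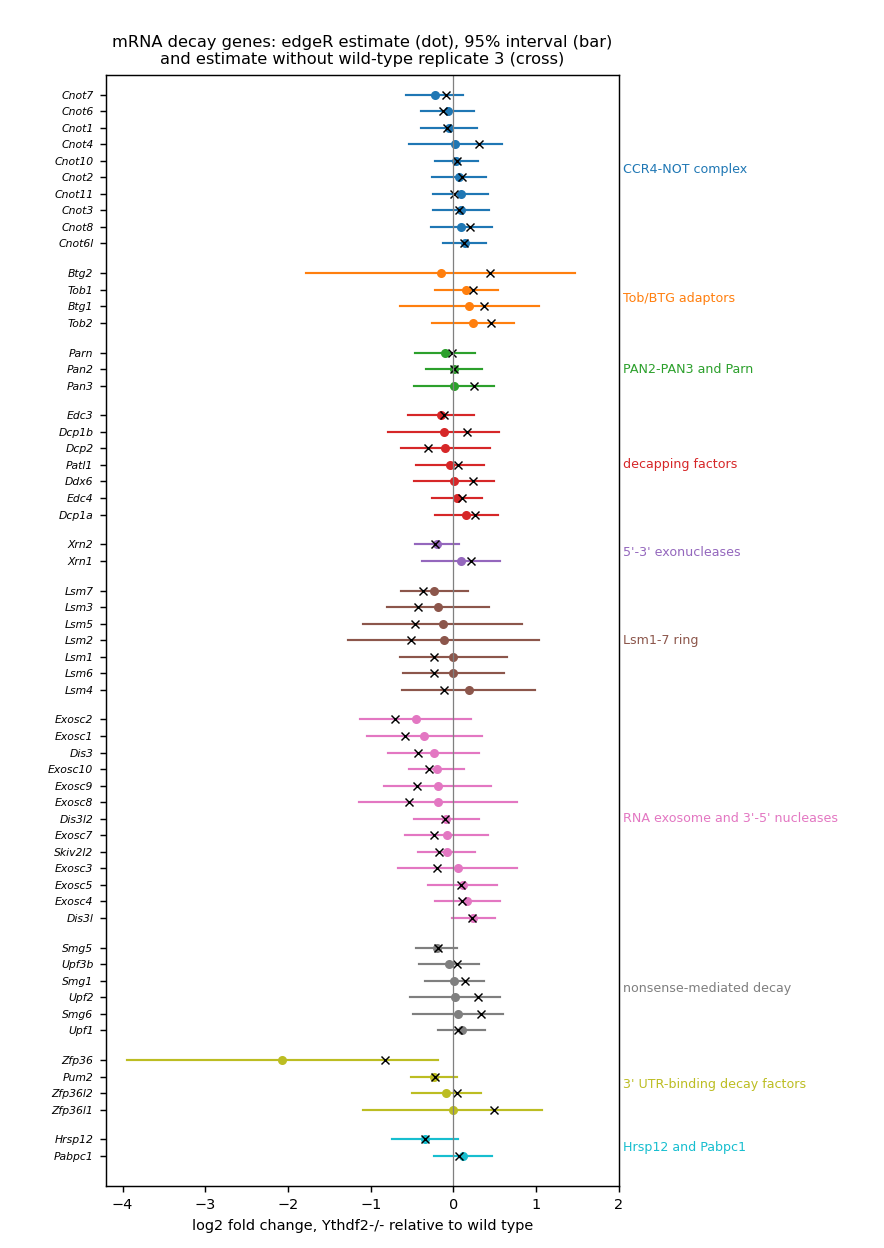
Log2 fold change of each of the 58 decay genes in Ythdf2-/- relative to wild type, with edgeR's 95% interval, grouped by complex. Crosses give the estimate without wild-type replicate 3. Zfp36 is the only gene whose interval lies off 0, and the crosses of the Lsm and exosome genes lie left of their dots.

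Between genotypes the decay genes differed little. The median log2 fold change of the 58 was -0.02, beside -0.01 for all 13112 genes tested, with 28 above 0 and 30 below, and it lay between -0.06 and 0.014 over the alternatives. For 54 of them the estimate was within 0.25 of 0 on the log2 scale, and for 36 the whole 95% interval lay inside a 1.5-fold difference in either direction. The 36 held all 10 CCR4-NOT genes, but 7 of the 13 exosome group genes, 1 of the 4 Tob/BTG adaptors and 0 of the 7 Lsm genes. For the rest the intervals do not exclude a 1.5-fold difference. In edgeR's quasi-likelihood test 1 of the 58 (1.72%) had an unadjusted p under 0.05, where 3.63% of all genes tested did so. That gene was Zfp36, lower in Ythdf2-/-. After adjustment over all genes 0 of the 58 passed in edgeR (0.00% of all genes). It was also 0 of the 58 with limma-voom, where 0 of all genes passed, and with DESeq2, where 31 of 13067 genes did. With sample quality weights in limma-voom, which gave wild-type replicate 3 a weight of 0.0901, 3 of the 58 (5.17%) passed an adjusted p of 0.05, beside 4.82% of all genes: Exosc2 and Exosc9 lower and Tob2 higher.

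In 7 of the 58 decay genes (12.1%) the genotypes did not overlap in CPM, beside 10.2% of all genes. Of these, 3 were higher in all Ythdf2-/- libraries (5.17%, beside 5.24% of all genes), namely Cnot6l, Dis3l and Pabpc1. The other 4 were lower in all of them (6.90%, beside 4.92% of all genes), namely Cnot7, Xrn2, Smg5 and Pum2. Both shares are near those of all genes. With 3 libraries a group, 0.1 is the smallest p of an exact permutation test for any one gene.

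The CCR4-NOT complex, the main cytoplasmic deadenylase and the one Ythdf2 contacts, had the smallest spread of the 10 groups in mean log2 CPM among libraries, with an SD of 0.0564 pooled over genotypes. All 10 members had a 95% interval inside 1.5-fold, with log2 fold changes from -0.22 to 0.13 and a median of 0.05, and from -0.13 to 0.31 without wild-type replicate 3. Over the alternatives the median lay between 0.005 and 0.07. Cnot1, the scaffold (chromosome 8, minus strand, 95718931 to 95807445), had 253, 242 and 238 CPM in wild type and 215, 270 and 220 CPM in Ythdf2-/-. The groups overlapped, with Ythdf2-/- replicate 2 above every wild-type library, and the log2 fold change was -0.06 (SE 0.141, 95% interval -0.40 to 0.28). Cnot6, the most abundant of the Ccr4-type deadenylases, had 293, 279 and 250 CPM against 247, 284 and 252 CPM, again overlapping. Its paralogue Cnot6l had 87.6, 84.2 and 85.0 CPM in wild type and 95.2, 89.5 and 97.2 CPM in Ythdf2-/-. Each Ythdf2-/- library was higher, by a log2 fold change of 0.13 (SE 0.106, adjusted p = 0.999). Cnot4, the least abundant member, had 37.6, 35.7 and 61.0 CPM against 45.4, 43.2 and 48.1 CPM, so that wild-type replicate 3 lay above all other libraries.

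Cnot7 and Cnot8 are the paralogous Caf1-type deadenylases, of which a complex is known to hold one at a time. Cnot7 (chromosome 8, 40492538 to 40515847, minus strand, 9 exons) had 93.2, 93.6 and 120 CPM in wild type and 89.4, 84.0 and 89.6 CPM in Ythdf2-/-. The groups did not overlap, but wild-type replicates 1 and 2 were close to the Ythdf2-/- libraries. The log2 fold change was -0.22 (SE 0.143, adjusted p = 0.999), and -0.09 without wild-type replicate 3. Cnot8 (chromosome 11, 58092794 to 58118597, plus strand, 11 exons) had 55.2, 64.3 and 72.8 CPM against 67.7, 75.5 and 62.2 CPM, which overlapped. The ratio of Cnot7 to Cnot8 reads was 1.69, 1.46 and 1.65 in wild type and 1.32, 1.11 and 1.44 in Ythdf2-/-. All 3 Ythdf2-/- ratios lay below the 3 wild-type ratios, wild-type replicate 3 included, with a difference in mean log2 ratio of -0.31 (two-sided exact permutation p = 0.1, the smallest that 3 against 3 allow, and 0.533 after Benjamini-Hochberg adjustment over 8 pairs). Among libraries with Y-linked reads the ratios were 1.69 and 1.46 in wild type against 1.44, and among those without them 1.65 against 1.32 and 1.11.

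**Figure D3:**
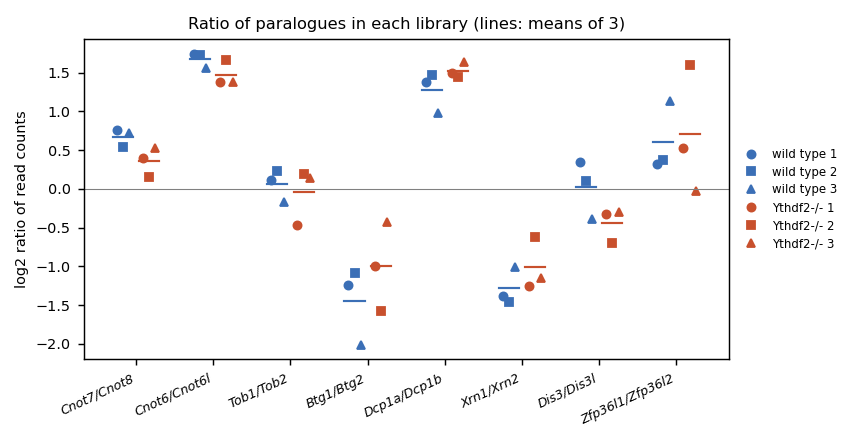
Log2 ratio of read counts for 8 pairs of paralogues in each library, wild type in blue and Ythdf2-/- in orange, with a line at the mean of 3. Cnot7/Cnot8 is the only pair whose groups do not overlap, at 0.54 to 0.76 in wild type and 0.15 to 0.53 in Ythdf2-/-.

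The other 7 pairs overlapped between genotypes. The mean log2 ratio differed by -0.20 for Cnot6/Cnot6l, by 0.25 for the decapping activators Dcp1a/Dcp1b, by 0.28 for Xrn1/Xrn2 and by -0.46 for the exosome nucleases Dis3/Dis3l. Their exact permutation p-values were 0.2 to 0.4, and leaving out 1 library moved 3 of these 4 differences by over 1.5 times. Dcp1a/Dcp1b was 0.11 without wild-type replicate 3. Xrn1/Xrn2 was 0.08 without Ythdf2-/- replicate 2 and 0.42 without wild-type replicate 3. Dis3/Dis3l was -0.29 without wild-type replicate 1 and -0.66 without wild-type replicate 3. Pairs of the Btg, Tob and Zfp36 families varied more among libraries of one genotype than between genotypes. Btg1/Btg2, for example, had a log2 ratio of -2.01 to -1.09 in wild type and -1.57 to -0.43 in Ythdf2-/-.

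The Tob/BTG adaptors bind Cnot7 and Cnot8 and recruit them to mRNAs bound by other proteins. Btg2 (chromosome 1, minus strand, 134074865 to 134079155) had 127, 121 and 312 CPM in wild type and 107, 330 and 66.9 CPM in Ythdf2-/-. Wild-type replicate 3 and Ythdf2-/- replicate 2 were the high libraries and Ythdf2-/- replicate 3 the low one, so the Ythdf2-/- range spanned that of wild type. Its log2 fold change of -0.15 had a SE of 0.673 and a 95% interval from -1.78 to 1.48, and the value was 0.44 without wild-type replicate 3 and -1.09 without Ythdf2-/- replicate 2. The median of the 4 adaptors was 0.17, with a range over the alternatives from -0.099 without Ythdf2-/- replicate 2 to 0.41 without wild-type replicate 3. Btg1 was high in the same 2 libraries, with 53.6, 56.8 and 77.2 CPM against 53.5, 111 and 49.5 CPM. Tob2, the least abundant adaptor, had 36.3, 36.5 and 53.7 CPM against 57.0, 48.0 and 44.3 CPM. Only wild-type replicate 3 overlapped the Ythdf2-/- libraries. The log2 fold change of Tob2 was 0.24 (SE 0.206), and 0.45 without that library (SE 0.135, adjusted p = 0.222). It was 0.14 without wild-type replicate 1 or Ythdf2-/- replicate 1, 0.15 without wild-type replicate 2 and 0.13 with the presence of Y-linked reads as a term.

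The factors that bind 3′ UTRs and recruit decay enzymes held the one gene called without adjustment. Zfp36 (chromosome 7, 28376784 to 28379228, minus strand, 2 exons) had 595, 813 and 3165 counted reads in wild type and 311, 688 and 227 in Ythdf2-/-. As CPM these were 50.9, 62.0 and 289.7 in wild type and 26.5, 50.9 and 18.3 in Ythdf2-/-. Wild-type replicate 3 stood at 513% of the mean of the other 2 wild-type libraries, and Ythdf2-/- replicate 2 was level with wild-type replicate 1. The log2 fold change was -2.07 (SE 0.778, adjusted p = 0.999), and -0.82 without wild-type replicate 3 (SE 0.405, adjusted p = 0.361). Over the 16 alternative settings the adjusted p ran from 0.0574, with sample quality weights, to 1. Within the libraries with Y-linked reads Zfp36 was 50.9 and 62.0 CPM in wild type against 18.3 CPM, and within those without them it was 289.7 against 26.5 and 50.9 CPM.

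**Figure D4:**
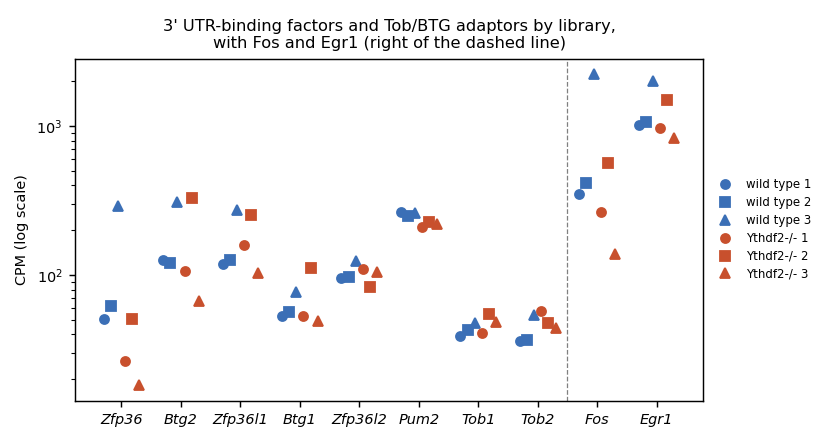
CPM (log axis) of the 3′ UTR-binding factors and the Tob/BTG adaptors in each library, with Fos and Egr1 to the right of the dashed line. Circles, squares and triangles are replicates 1, 2 and 3. In Zfp36, Btg2, Zfp36l1, Fos and Egr1, Ythdf2-/- replicate 3 is the lowest library, and wild-type replicate 3 the highest except in Btg2.

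Fos and Egr1, the classical immediate-early genes, were looked up after the values of Zfp36 and Btg2 had been seen. Fos had 350, 414 and 2222 CPM in wild type and 264, 563 and 139.5 CPM in Ythdf2-/-. Egr1 had 1016, 1063 and 2009 CPM against 978, 1504 and 828 CPM. In both genes wild-type replicate 3 was the highest library, Ythdf2-/- replicate 2 the next and Ythdf2-/- replicate 3 the lowest, and Zfp36l1 (119, 127 and 273 CPM against 160, 253 and 103 CPM) had the same order at both ends. The part of signalling at harvest, or of the cells that carried the glial markers, in the Zfp36 difference was not tested.

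The other 2 factors of this group varied less. Zfp36l2 had 95.1, 97.6 and 125 CPM against 111, 83.6 and 104 CPM, which overlapped. Pum2, a Pumilio protein that recruits CCR4-NOT to TGTANATA sites, had 266, 250 and 262 CPM in wild type and 211, 229 and 220 CPM in Ythdf2-/-. It lies on the plus strand of chromosome 12 from 8674134 to 8752583. Each Ythdf2-/- library was lower, by a log2 fold change of -0.24 (SE 0.116, adjusted p = 0.999). Without wild-type replicate 3 the value was -0.23.

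With all libraries, the PAN2-PAN3 complex, which makes the first cut into long poly(A) tails, and the deadenylase Parn did not differ beyond the spread between replicates. Their log2 fold changes were -0.11 to 0.01, and all 3 intervals lay inside 1.5-fold. The values were -0.01 to 0.25 without wild-type replicate 3, the highest in Pan3. Pan3 then had an unadjusted p under 0.05 in edgeR (SE 0.0903, adjusted p = 0.260). Parn, the most abundant, had 51.4, 51.0 and 61.6 CPM against 53.5, 54.9 and 43.9 CPM, a log2 fold change of -0.11 (SE 0.151) that ran from -0.20 to 0.0067 over the alternatives. Pan3, the RNA-binding subunit and the least abundant, had 45.6, 44.6 and 69.5 CPM against 52.7, 54.6 and 53.3 CPM.

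Of the 7 decapping factors 3 were above 0 and 4 below, and their log2 fold changes ran from -0.15 to 0.16 (median -0.04). The group turned to 5 above and 2 below, with a median of 0.10, when wild-type replicate 3 was left out. Dcp2, the decapping enzyme itself, then differed most. It had 118.5, 102.9 and 66.8 CPM against 88.3, 96.3 and 84.4 CPM, a log2 fold change of -0.10 (SE 0.222) with all libraries and -0.30 without wild-type replicate 3 (SE 0.109, adjusted p = 0.257). With all libraries Dcp1a, the activator of Dcp2, had the largest difference, with 31.3, 34.3 and 39.7 CPM against 41.1, 42.3 and 34.2 CPM. The groups overlapped, and its log2 fold change was 0.16 (SE 0.157). It was 0.26 without wild-type replicate 3, 0.25 without Ythdf2-/- replicate 3, 0.08 without wild-type replicate 1 and 0.06 with the Y-linked term. Dcp1b had 12.1, 12.4 and 20.1 CPM against 14.6, 15.5 and 10.9 CPM. Ddx6, which links CCR4-NOT to decapping, had 238, 237 and 360 CPM against 275, 296 and 268 CPM. In both genes wild-type replicate 3 was above all other libraries.

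Of the 5′-3′ exonucleases, Xrn2 (chromosome 2, plus strand, 147012999 to 147078000) had 172, 161 and 159 CPM in wild type and 148, 137 and 145 CPM in Ythdf2-/-. Each Ythdf2-/- library was lower, by a log2 fold change of -0.20 (SE 0.111, adjusted p = 0.999), and by -0.22 without wild-type replicate 3. Xrn1, the enzyme that digests decapped mRNA, had 66.1, 58.4 and 79.4 CPM against 62.3, 88.8 and 65.5 CPM, which overlapped.

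**Figure D5:**
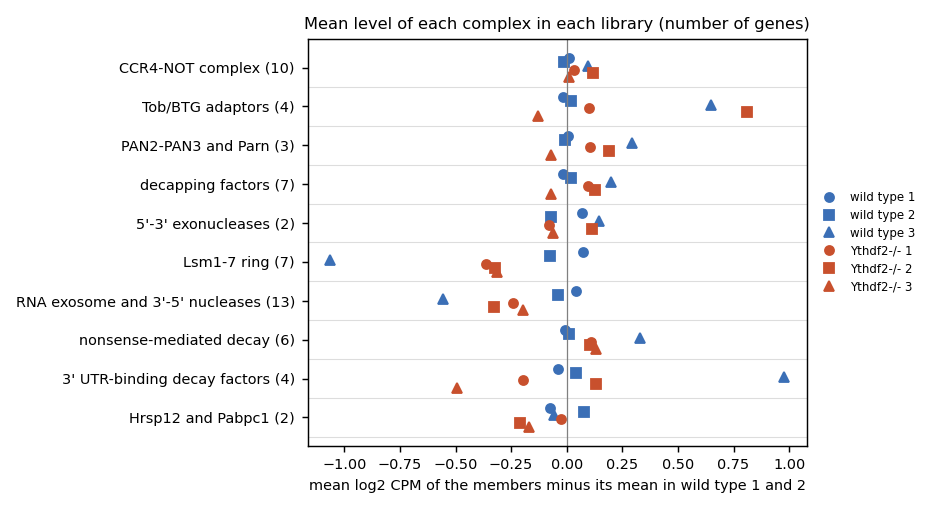
Mean log2 CPM of each group's genes in each library, relative to the mean of wild-type replicates 1 and 2, with wild type in blue and Ythdf2-/- in orange. For the Lsm1-7 ring and the exosome group the 3 Ythdf2-/- libraries lie between wild-type replicates 1 and 2 on the right and wild-type replicate 3 on the left, at -0.36 to -0.31 and -0.33 to -0.20. For CCR4-NOT all 6 libraries lie within -0.01 to 0.12.

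The Lsm1-7 ring and the exosome group differed more among libraries than between genotypes. The mean log2 CPM of the 7 Lsm genes was 5.46, 5.32 and 4.33 in wild type and 5.03, 5.07 and 5.08 in Ythdf2-/-. Wild-type replicate 3 was the lowest library for all 7 Lsm genes and for 9 of the 13 exosome and 3′-5′ nuclease genes. In both group means the 3 Ythdf2-/- libraries lay close together, below wild-type replicates 1 and 2 and above wild-type replicate 3. An extreme place was common for wild-type replicate 3. It lay outside the range of the other 5 libraries in 68.25% of all genes tested. Among the 58 decay genes it did so in 34, with 20 below and 14 above. The median log2 fold change of the Lsm genes was -0.12 with all libraries and had no stable sign. It was -0.36 without wild-type replicate 3, but 0.15 without wild-type replicate 1, 0.23 with the Y-linked term, 0.03 with limma-voom and 0.04 with the replicate number as a block. Lsm7, the most abundant Lsm gene per exon length and, with all libraries, the one with the largest difference, had 44.0, 45.4 and 32.9 CPM against 37.1, 33.1 and 34.1 CPM. Its log2 fold change was -0.23 (SE 0.166), and -0.36 without wild-type replicate 3 (SE 0.104, adjusted p = 0.213), -0.14 without wild-type replicate 2 and -0.15 with the Y-linked term. Without wild-type replicate 3, Lsm2 (-0.51), Lsm5 (-0.47) and Lsm3 (-0.43) differed more than Lsm7. Lsm1, the subunit found only in the cytoplasmic ring, had 24.5, 25.9 and 14.0 CPM against 21.4, 18.7 and 24.4 CPM.

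In the RNA exosome, a ring of Exosc subunits with the nucleases Dis3 and Exosc10, 9 of 13 genes were below 0, with a median log2 fold change of -0.09. These became 10 of 13 and -0.24 without wild-type replicate 3, and the median was -0.02 without wild-type replicate 1 and -0.0075 with the Y-linked term. Exosc2, an RNA-binding cap subunit (chromosome 2, plus strand, 31670715 to 31681352), had 49.1, 41.9 and 23.8 CPM in wild type and 28.7, 25.1 and 29.8 CPM in Ythdf2-/-. Wild-type replicates 1 and 2 lay above the Ythdf2-/- libraries and wild-type replicate 3 below them. The log2 fold change was -0.46 (SE 0.276, adjusted p = 0.999), and -0.71 without wild-type replicate 3 (SE 0.131, adjusted p = 0.151). It was -0.24 without wild-type replicate 1 and -0.22 with the Y-linked term. An antisense gene overlaps 54 bp of the Exosc2 exons. Such overlaps were larger in Exosc9 (378 of 1617 bp), Dis3 (325 bp), Skiv2l2 (115 bp) and Exosc8 (85 bp). Exosc8, the most abundant exosome subunit, had 67.9, 57.1 and 21.9 CPM against 46.0, 39.3 and 43.7 CPM, again with the Ythdf2-/- libraries between wild-type replicates 1 and 2 above and wild-type replicate 3 below. Dis3l2, which digests uridylated RNA outside the exosome and is the least abundant of the group, had 30.8, 30.0 and 29.6 CPM against 25.0, 33.8 and 26.2 CPM. Dis3l, the cytoplasmic exosome nuclease, went the other way, with 50.4, 52.3 and 49.8 CPM in wild type and 57.6, 61.1 and 61.8 CPM in Ythdf2-/-. Its groups did not overlap, and the log2 fold change was 0.24 (SE 0.110, adjusted p = 0.999) and 0.23 without wild-type replicate 3.

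Without wild-type replicate 3, an unadjusted p under 0.05 was reached by 17 of the 58 decay genes (29.3%), beside 16.6% of all genes, and 0 passed an adjusted p of 0.05. Lower in Ythdf2-/- were 11 (19.0%, beside 8.58% of all genes), of which 10 belonged to the Lsm1-7 ring or the exosome group. These were Lsm2, Lsm3, Lsm5 and Lsm7, and Exosc1, Exosc2, Exosc8, Exosc9, Exosc10 and Dis3, with Dcp2 as the 11th. Higher were 6 (10.3%, beside 8.03% of all genes), namely Cnot4, Tob2, Pan3, Dis3l, Upf2 and Smg6. Only 2 wild-type libraries then define the wild-type level.

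Gene length moved with this pattern. The median exon length was 942 bp in the Lsm1-7 ring and 1689 bp in the exosome group, against 3519 bp in CCR4-NOT and 4912 bp in the nonsense-mediated decay group. Of the 11 genes that were lower without wild-type replicate 3, 8 had under 2000 bp of exon. These were 60% of the 5 decay genes under 1000 bp, beside 12.2% of all genes of that length, and 50% of the 10 of 1000 bp or more but under 2000 bp, beside 12.9%. Among all tested genes under 1000 bp, wild-type replicate 3 was lower than wild-type replicates 1 and 2 by a median log2 ratio of -0.42, and the median log2 fold change without it was -0.15. Among genes of 4000 bp or more these medians were 0.27 and 0.11. For the 5 decay genes under 1000 bp the same medians were -0.90 and -0.36. For the 10 of 1000 bp or more but under 2000 bp they were -0.89 and -0.48, beside -0.26 and -0.08 for all genes of that length. The part of length, of the source of the RNA or of its quality in the pattern was not tested.

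The nonsense-mediated decay genes, whose products degrade mRNAs with premature stop codons, had 4 of 6 above 0 (median log2 fold change 0.01), and 5 of 6 (median 0.10) without wild-type replicate 3. The median was -0.097 without wild-type replicate 1, -0.07 without wild-type replicate 2 and -0.05 with the Y-linked term. Smg5 (chromosome 3, plus strand, 88336260 to 88362337), which recruits decapping and deadenylation enzymes to the helicase Upf1, had 91.3, 86.2 and 90.7 CPM in wild type and 77.8, 77.6 and 77.6 CPM in Ythdf2-/-. The groups did not overlap and each was tight, and the log2 fold change was -0.20 (SE 0.104, adjusted p = 0.999) and -0.19 without wild-type replicate 3. Upf3b, the most abundant, had 56.2, 54.5 and 67.3 CPM against 52.4, 64.7 and 54.3 CPM. Upf2, the least abundant, had 41.7, 44.6 and 70.6 CPM against 56.8, 50.9 and 50.9 CPM, with wild-type replicate 3 above all other libraries.

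Hrsp12 and the poly(A)-binding protein gene Pabpc1 complete the set. Hrsp12 (chromosome 15, minus strand, 34484022 to 34495246) had 46.0, 56.9 and 52.0 CPM in wild type and 47.0, 34.7 and 40.4 CPM in Ythdf2-/-. Ythdf2-/- replicate 1 overlapped wild-type replicate 1 and the other 2 were lower, with a log2 fold change of -0.34 (SE 0.163, 95% interval -0.74 to 0.05, adjusted p = 0.999) that was also -0.34 without wild-type replicate 3. Its Ythdf2-/- mean of 40.7 ± 6.13 CPM (SD, n = 3) was 78.8% of the wild-type mean of 51.6 ± 5.42 CPM (SD, n = 3). Pabpc1, which coats the poly(A) tail, had 769.9, 768.9 and 697 CPM in wild type and 809, 844 and 770.4 CPM in Ythdf2-/-. The groups were apart by less than 1 CPM, and the log2 fold change was 0.12 (SE 0.147), and 0.07 without wild-type replicate 3.

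Among other decay genes, 72 were found in 7 lists and 70 were tested. Their median log2 fold change was -0.01, 1 had an unadjusted p under 0.05 (1.43%, beside 3.63% of all genes) and 0 passed an adjusted p of 0.05. That gene was Pabpn1, the nuclear poly(A)-binding protein, with 187, 168 and 227 CPM in wild type and 143, 148 and 143 CPM in Ythdf2-/-. All Ythdf2-/- libraries were lower, with a log2 fold change of -0.42 (SE 0.147, adjusted p = 0.999) and -0.29 without wild-type replicate 3. Its unadjusted p was no longer under 0.05 with the replicate block or without wild-type replicate 1 or any 1 Ythdf2-/- library, while the log2 fold change in these fits was -0.44 to -0.40. It was 1 of 14 other factors of poly(A) tails, uridylation and RNA binding, whose median was -0.06, and 0.05 without wild-type replicate 3. The remaining 6 lists had 0 genes at an unadjusted p under 0.05. Their medians were 0.11 for 7 other CCR4-NOT partners and deadenylases, -0.12 for 9 other decapping and Lsm genes, -0.10 for 13 exosome cofactors of the Ski, TRAMP and NEXT complexes, -0.02 for 10 other nonsense-mediated decay genes, 0.06 for 10 RNase P/MRP subunits and 0.04 for 7 genes of microRNA-induced silencing. Without wild-type replicate 3 the same medians were, in this order, 0.03, -0.07, -0.08, -0.08, -0.12 and 0.21, so that the RNase P/MRP median changed sign. Without wild-type replicate 3, 14 of the 70 (20.0%, beside 16.6% of all genes) reached an unadjusted p under 0.05, 6 higher and 8 lower.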

How the data were processed

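RNA-seq input libraries of E14.5 neurospheres, 3 wild-type and 3 Ythdf2-/-, were analysed, and the 6 m6A-IP libraries were not analysed here. Samples were grouped by the sample labels. Poly(A)-selected mRNA was fragmented by sonication and the kit keeps strand. Per the methods and the submitters' processing notes, reads were aligned to mm10, with TopHat, Bowtie2 2.2.9, RSEM 1.2.15 and featureCounts among the tools named. The authors deposited unnormalized counts of reads for each gene. How counting used strand and multi-mapped reads is not given in the sources used here, so counts of close paralogues, and of the 9 decay genes with exons antisense to another gene, are uncertain. The deposited expected counts, TPM and FPKM were not used, apart from the gene lengths beside them.

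In R 4.3.3, edgeR 4.0.16 kept 13112 genes (filterByExpr), scaled libraries by TMM and compared genotypes, with no other term, by its robust quasi-likelihood F-test. P-values were adjusted over all 13112 genes by the Benjamini-Hochberg method. CPM used TMM library sizes, and levels per gene were RPKM on the merged curated RefSeq exons of GRCm38.p6, the same assembly as mm10. Ratios of paralogues used log2 of reads with 0.5 added and a two-sided exact permutation test over all 20 assignments. Group means of log2 CPM used a prior count of 2. DESeq2 1.42.0 and limma-voom (limma 3.58.1, without and with sample quality weights), other scalings and filters, the replicate number or the presence of Y-linked reads as a term, and leaving out each library were alternatives. Tests were tried on simulated counts first. Promoters came from RefSeq, 3′ UTRs from GENCODE M21 (the protein-coding transcript with the longest coding sequence), and other steps used Python 3.11.15. Genes were named by rule: the targeted gene, Cnot1, Hrsp12, decay genes at an unadjusted p under 0.05 or with groups that did not overlap, in each group the highest, the lowest and the one with the largest difference, pairs at the smallest exact p, and other decay genes at an unadjusted p under 0.05. Btg1, Zfp36l1, Zfp36l2, Fos and Egr1, and the genes counted without wild-type replicate 3, were named after their values were seen. The members and all lists were chosen with earlier results of these data known.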

Additional observations from a re-analysis of the deposited data

How the results depend on the processing

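The count of decay genes at an unadjusted p under 0.05 (1) became 2 with DESeq2 (4.29% of all genes), 0 with limma-voom (3.47%) and 24, or 41.4%, with sample quality weights (29.9%), and 0 to 17 on leaving out 1 library (17 without wild-type replicate 3, beside 16.6%, and 0 without Ythdf2-/- replicate 1 or 3). The count at an adjusted p under 0.05 (0) became 3 with sample quality weights. The count of decay genes whose genotypes do not overlap (7) became 8 to 29 on leaving out 1 library, with 29 without wild-type replicate 3 (39.0% of all genes), 18 without Ythdf2-/- replicate 2 (22.1%) and 11 without Ythdf2-/- replicate 3 (15.9%). With CPM by library size alone it was 6 (9.91% of all genes). The median log2 fold change of the decapping factors (-0.04) was 0.12 with sample quality weights and -0.093 to 0.10 on leaving out 1 library, the highest without wild-type replicate 3. The log2 fold change of Parn became 0.0067 with sample quality weights, that of Cnot1 was -0.16 to 0.014 on leaving out 1 library, above 0 without Ythdf2-/- replicate 1, and that of Btg2 was -1.09 to 0.44, above 0 without wild-type replicate 3 (0.44) and without replicate 1 (0.11) or 3 (0.23) of Ythdf2-/-. Group medians changed sign in at least 1 of 16 alternatives for 5 of the 10 groups: the Tob/BTG adaptors (in 1), PAN2-PAN3 and Parn (8), the decapping factors (3), the Lsm1-7 ring (4) and the nonsense-mediated decay genes (3). The cause of these changes was not tested, and the fits that leave out 1 library also hold fewer libraries.

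Of 288 recomputed values for 18 of the genes whose fold changes are given, 260 kept their direction and their side of an unadjusted p of 0.05, 13 passed it and 10 lost it. Dcp2, not among the 18, ran from -0.30 to 0.08 over the 16 alternatives. Zfp36 lost it with limma-voom, with the replicate block and without wild-type replicate 3 or Ythdf2-/- replicate 1 or 3, and Pabpn1 lost it with the replicate block and without wild-type replicate 1 or any 1 Ythdf2-/- library. Deviations of same-numbered libraries from their group means correlated at -0.39 to -0.24. Deviations within a genotype depend on each other, and wild-type replicate 3 stood apart. These correlations therefore cannot decide whether the replicate numbers pair the libraries, and the labels do not say. With the replicate number as a block, 0 decay genes had an unadjusted p under 0.05 (1.40% of all genes).

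In the main edgeR fit, with a median standard error of 0.168 on the log2 scale, differences of the size seen in most decay genes were not detectable. With sample quality weights in limma-voom, 24 of the 58 had an unadjusted p under 0.05, and 3 passed an adjusted p of 0.05. The shares of all genes were then 29.9% and 4.82%.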
